A study of Rattus norvegicus with 3 samples.

Results

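The heat shock proteins and their co-chaperones were taken as all genes of the count tables whose symbol begins with Hsp, with Dnaja, Dnajb or Dnajc followed by a number, or with Bag followed by a number from 1 to 6, leaving out the basement membrane proteoglycan Hspg2. This rule gave 79 of the 22250 genes. By symbol, 8 were grouped as small heat shock proteins, Hspb11 among them, and 13 were members of the HSP70 family. A further 3 were of the HSP90 family, 2 were the subunits of the mitochondrial chaperonin, and 4, 13 and 28 were class A, B and C J-domain proteins. The rest were 6 BAG proteins and 2 proteins that bind heat shock proteins, Hspbap1 and Hspbp1. The rule used symbols and no measured value. Dnajb8, Dnajc5g and Hspb9 had 0 UMIs in all nuclei, which allows a level of up to 0.175, 0.200 and 0.218 CPM in the WT, BMD and DMD libraries. Where 3 values follow each other below, they are in this order.

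Single nuclei from the heart apex of Sprague Dawley rats aged 12 months were sequenced in 1 library per genotype. WT rats carried no edit. BMD rats lacked exons 45 to 47 of the dystrophin gene Dmd, an in-frame deletion made by CRISPR/Cas9, and DMD rats lacked exon 52, as models of Becker and Duchenne muscular dystrophy, and the number of animals behind each library is not given in the sources used here. The apex held parts of both ventricles and of the septum, and nuclei were stained with DAPI and sorted, so the counts describe mainly nuclear RNA. RNA from outside nuclei, estimated at 3.46%, 6.07% and 4.68% of the UMIs of cardiomyocyte-like nuclei, is described below. With 1 library per genotype nothing measures the variation between animals, no test was run, and every interval is a 95% interval for counting error alone.

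Chaperones hold unfolded proteins in a state from which they can still fold. Small heat shock proteins bind unfolding clients without using ATP, HSP70 proteins bind and release short exposed stretches in an ATP cycle that J-domain proteins start and BAG proteins and other exchange factors end, and HSP90 proteins act late on kinases, receptors and contractile proteins. Under proteotoxic stress the heat shock factor Hsf1 forms a trimer that binds inverted repeats of the unit GAA, called heat shock elements, in the promoters of the inducible members. In striated muscle several small heat shock proteins sit at the Z-disc, and Bag3 links Hsp70 and Hspb8 to the autophagic removal of damaged Z-disc proteins such as filamin C.

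The promoter sequences of the inducible members are shown because Hsf1 acts through these elements and several of the members described below carry one. RefSeq promoters of the assembly GRCr8, from 250 bases before to 50 bases after the start of a gene, were found for 63 of the 79 members. A pair of units, GAANNTTC or TTCNNGAA, each being its own reverse complement, was present in 17 of these 63 promoters (27.0%), against 5305 of all 33469 promoters (15.9%). Runs of 3 units, GAANNTTCNNGAA or TTCNNGAANNTTC on either strand, each of which contains overlapping pairs, were present in 5 of the 63 (7.94%) against 267 of all promoters (0.798%). The 5 were Dnaja1, Hspa8, Hspd1, Hspe1 and Hsph1. Among the textbook Hsf1 targets with a promoter, 8 of 9 held a pair, the exception being Hsp90ab1. Since Hsf1 acts through these elements, a list of its targets is not independent of them. Of the 5 members with a promoter that were past 1.5-fold higher in cardiomyocyte-like nuclei of either mutant, Hspb1, Hspa8 and Dnajb1 held a pair, Hspa8 alone with 3 units in a row, and Hsp90ab1 and Hspb3 held none. All of these 5 but Hspb3 are also textbook targets, so the groups overlap. Among the members that were neither such targets nor past 1.5-fold higher in cardiomyocyte-like nuclei, 9 of 53 held a pair (17.0%). None of these 53 held 3 units in a row. A match is a description of the letters and not a measured binding site. In the following stretches, written 5′ to 3′ on the strand of the gene, capitals mark the units of the elements.
Hspa8, chr8:50080445-50080485, plus strand: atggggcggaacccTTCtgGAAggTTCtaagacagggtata
Hsph1, chr12:10427318-10427358, plus strand: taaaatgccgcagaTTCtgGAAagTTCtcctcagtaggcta
Hspe1, chr9:64084248-64084293, plus strand: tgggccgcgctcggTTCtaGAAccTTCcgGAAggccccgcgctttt
Hspd1, chr9:64084248-64084287, minus strand: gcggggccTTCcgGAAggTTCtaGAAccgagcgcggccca
Hspb1, chr12:26432389-26432444, minus strand: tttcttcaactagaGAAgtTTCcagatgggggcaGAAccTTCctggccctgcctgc
Bag3, chr1:192533314-192533349, plus strand: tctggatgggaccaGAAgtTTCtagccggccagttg
Dnajb1, chr19:41431142-41431166, minus strand: catcgggaggggcgGAAggTTCtgg
Hspb8, chr12:45837271-45837306, plus strand: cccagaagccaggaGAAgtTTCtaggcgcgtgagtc
The stretches of Hspe1 and Hspd1 are the same DNA read from both strands, since the 2 chaperonin genes lie head to head and share 1 stretch of overlapping elements. Hspb1 held 2 separate pairs, and Bag3, Dnajb1 and Hspb8 are shown with 1 pair each.

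**Figure D1:**
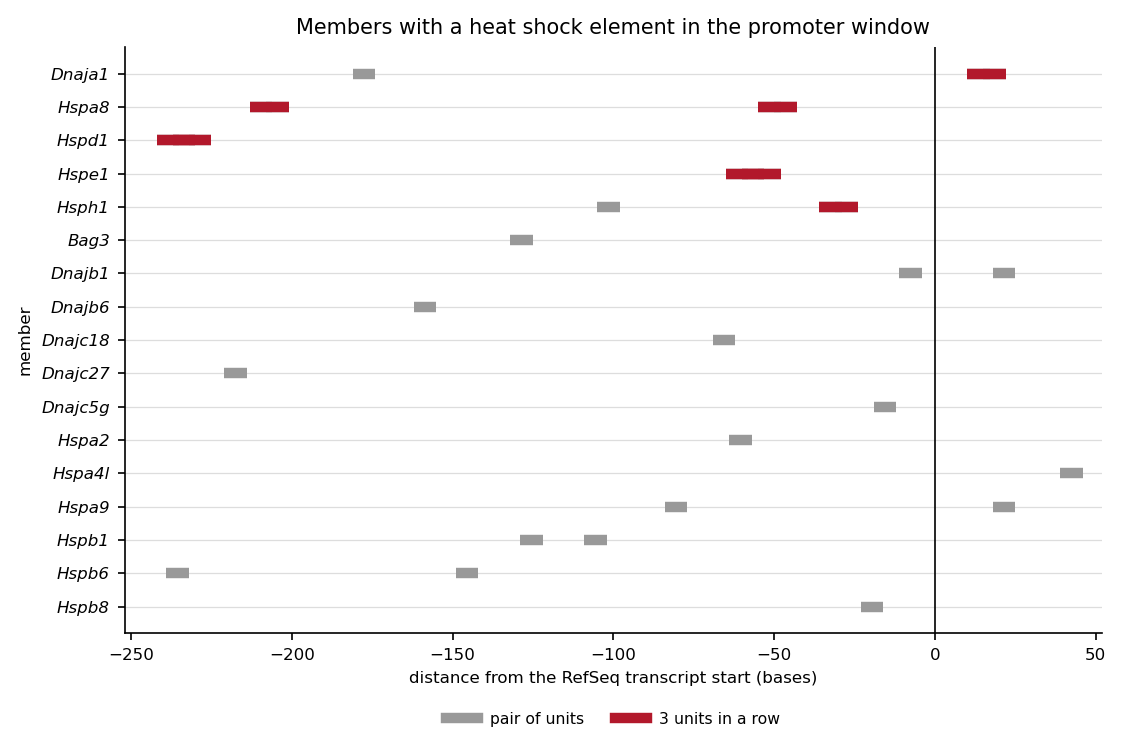
Positions of heat shock elements in the promoters of the 17 members that held one, with the distance from the RefSeq transcript start in bases on the horizontal axis and 1 member per line. Grey bars are pairs of units and red bars 3 units in a row, which 5 members held, with Hspa8 holding them at 2 places.

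The libraries held 21609238, 21142346 and 19215994 UMIs, where a UMI stands for 1 captured transcript. The deepest barcodes of each library were taken as nuclei, 24664 in all, with a median of 1212.5, 1486.5 and 1229 UMIs. Of their barcodes, 32 in WT, 32 in BMD and 24 in DMD also marked a nucleus of another library. Clusters made without the members were named from marker lists, which gave 4623 cardiomyocyte-like nuclei (11 of 11 markers raised), fibroblast-like clusters of 7051 and 380 nuclei, endothelial-like clusters of 3952 and 991, 639 lymphatic endothelial-like, 1661 pericyte-like or smooth muscle-like, 1921 macrophage-like, 991 T, B or NK cell-like, and 329 monocyte-like or neutrophil-like nuclei, and left 6 of 16 clusters unnamed. The 329 monocyte-like or neutrophil-like nuclei also carried the 11 cardiomyocyte markers at a summed 23665, 16364 and 12535 CPM, against 32061, 34829 and 33543 CPM in the cardiomyocyte-like nuclei, so members that mark cardiomyocytes cannot be told apart there from cardiomyocyte RNA. The T, B or NK cell-like class is named after its whole marker list. Of its B-cell markers, Cd79a, Cd79b and Ms4a1 stood at 2.45 CPM or less in each library, while Bank1 stood at 105, 64.5 and 85.9 CPM. The presence of B cells in that class is therefore not shown. Gene totals do not show which exons were read, so the edited gene Dmd could not check the labels. Its level in cardiomyocyte-like nuclei was 16477, 20563 and 19499 CPM.

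Among the members, Hspb3, Hspb6, Hspb7, Hspb8 and Bag3 marked the cardiomyocyte-like nuclei, at 3.27-fold or more above all other nuclei in each of the 3 libraries. CPM, the UMIs of a gene per 1000000 UMIs of the class in a library, was compared between classes as CPM + 5. Hspb7, the cardiovascular small heat shock protein, was 4.96-fold, Hspb3 4.91-fold, Hspb6 4.10-fold, Hspb8 3.87-fold and Bag3 3.84-fold above all other nuclei with the libraries pooled, followed by Hspa8 (3.20-fold), the mitochondrial J-domain protein Dnajc15 (2.96-fold), Hspb1 (2.89-fold) and Dnajb4 (2.77-fold). For Hspa8 and Hspb1 the pooled values came mainly from BMD. Hspa8 was 1.74-fold, 4.28-fold and 2.55-fold above other nuclei in the 3 libraries and Hspb1 1.43-fold, 4.11-fold and 1.82-fold. In WT Hspa8 was about as high in macrophage-like nuclei, on the few UMIs given below, and Hspb1 was higher in endothelial-like nuclei. Hspb11 was not raised, at 1.03-fold, 0.647-fold and 1.07-fold. In cardiomyocyte-like nuclei Hspb7 stood at 138, 195 and 109 CPM, and in fibroblast-like nuclei at 6.62, 15.5 and 10.7 CPM. Endothelial-like nuclei held 14.1, 19.2 and 17.4 CPM of Hspb7 and macrophage-like nuclei 8.31, 21.4 and 18.5 CPM. Bag3 was more widely present. Its level was 329.6, 441 and 423 CPM in cardiomyocyte-like nuclei, 92.0, 102 and 124 CPM in fibroblast-like nuclei, and between 32.5 and 60.1 CPM in endothelial-like, macrophage-like and pericyte-like or smooth muscle-like nuclei of any library.

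Other classes were marked by members of the endoplasmic reticulum and by the divergent HSP70 proteins. Fibroblast-like nuclei were highest in Hspa5, the reticulum's HSP70 known as BiP (417, 318 and 379 CPM, 3.41-fold above other nuclei), in its HSP90 partner Hsp90b1 (3.36-fold) and in Hspa13 (2.49-fold). Endothelial-like nuclei were marked by Hspa12b, an HSP70 relative of endothelium, at 243, 229 and 281 CPM, which was 9.16-fold above other nuclei, while cardiomyocyte-like nuclei held 1.58, 2.25 and 2.58 CPM of it. Its paralog Hspa12a was highest in pericyte-like or smooth muscle-like nuclei, with 167, 109 and 118 CPM (6.09-fold). Dnajc6, the auxilin that uncoats clathrin vesicles, stood 17.5-fold above other nuclei in T, B or NK cell-like nuclei, where it rested on 64, 13 and 40 UMIs.

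The next members of each class lay closer to the other nuclei. Dnaja1 was 2.07-fold and Dnajc14 1.43-fold above in endothelial-like nuclei, Dnajc14 1.56-fold and Dnajc19 1.42-fold in pericyte-like or smooth muscle-like nuclei, Dnajc16 2.46-fold, Dnajc5 1.88-fold and Dnajc22 1.84-fold in macrophage-like nuclei, and Dnajc1 2.65-fold and Dnajc2 1.91-fold in T, B or NK cell-like nuclei. In the small lymphatic endothelial-like class the leading members were Hspa2, Dnajc22 and Hspa12a, with 10, 10 and 46 UMIs over the 3 libraries. Hspb3, Hspa2 and Dnaja1 led in the monocyte-like or neutrophil-like class, whose cardiomyocyte marker level is given above.

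**Figure D2:**
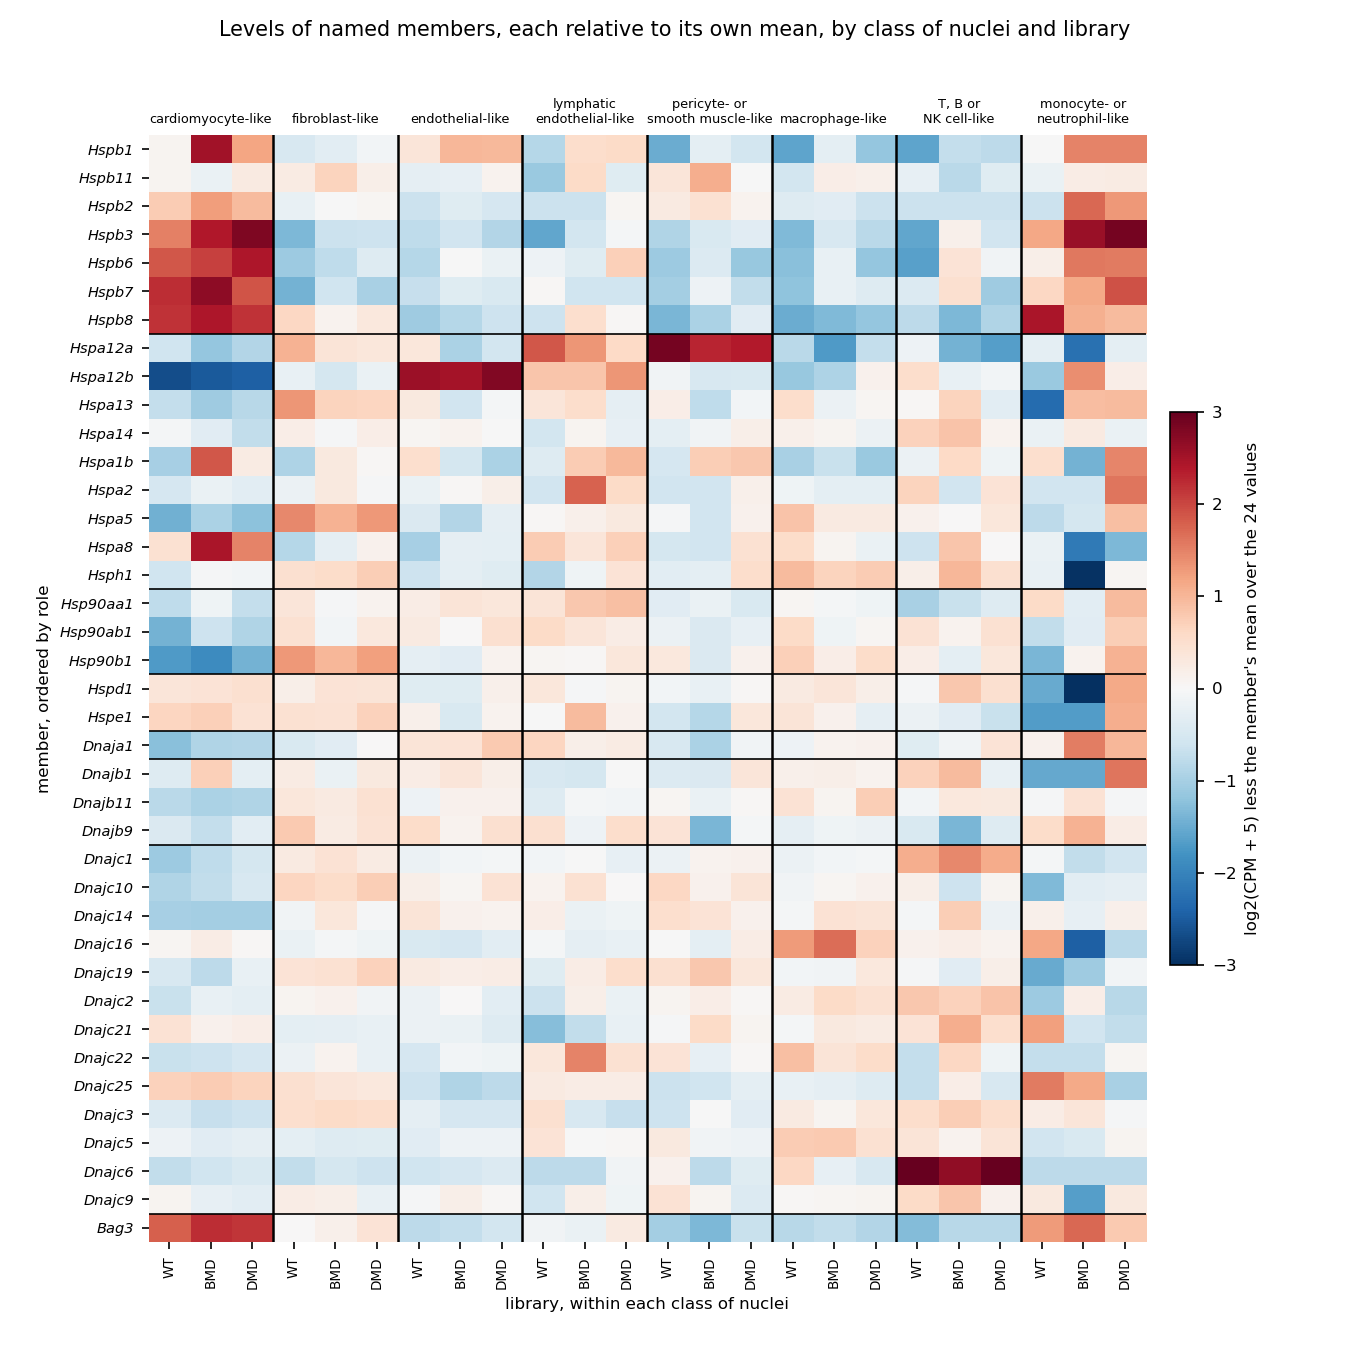
Heat map of the named members, ordered by role, in 8 classes of nuclei and 3 libraries, each cell giving log2(CPM + 5) less the mean of that member over its 24 values. Hspb3, Hspb6, Hspb7, Hspb8 and Bag3 are red in cardiomyocyte-like nuclei of all libraries, Hspa12b in endothelial-like and Hspa12a in pericyte-like or smooth muscle-like nuclei, and the last 3 columns hold only 329 nuclei.

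In cardiomyocyte-like nuclei a few members, among them Hspb1, Hspa1b and Hspa8, differed between genotypes. Of the 67 members with at least 50 UMIs over the 3 libraries in that class, 7 were past 1.5-fold higher in BMD than in WT, namely Hspb1, Hspa1b, Hspa8, Hspb3, Hsp90ab1, Hsp90aa1 and Dnajb1, and 4 were past it in DMD, namely Hspb1, Hspa1b, Hspa8 and Hspb3. All 4 of the DMD genes were among the 7 of BMD, but both comparisons used the same WT library. No member was past 1.5-fold lower in BMD, and Hspa14 was in DMD. Over all 10130 genes tested the same way, 4.64% were past 1.5-fold higher and 4.99% lower in BMD, against 10.4% and 0 of the members, and 6.15% were past it higher and 6.11% lower in DMD, against 5.97% and 1.49% of the members. The members' share in DMD was therefore near that of all genes. On CPM + 5, the median member ratio (log2) was 0.05 in BMD and 0.06 in DMD, beside −0.04 and −0.03 for all genes, and 39 and 42 of the 67 lay above 0.

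These comparisons rest on 2029, 1531 and 1063 cardiomyocyte-like nuclei with 6344838, 6657402 and 3869772 UMIs. Median depth was 2762, 3769 and 3249 UMIs a nucleus, and mitochondrial genes took 0.242%, 0.397% and 0.481% of the UMIs. Log2 ratios are of CPM, with intervals from the exact Clopper-Pearson interval of the share of the UMIs of both libraries. Calls of past 1.5-fold were made on CPM + 5 instead. A gene not called can therefore exceed 1.5-fold on its CPM. The intervals take each UMI as independent. They are too narrow where the UMIs of a gene gather in few nuclei, as those of Hspb1 and Hspb7 do in BMD. Hspa1b (ENSRNOG00000050647) has a near-identical neighbour, Hspa1a, not analysed here, and Hspa8, Hspd1, Hspe1 and the HSP90 genes have near-identical copies elsewhere in mammalian genomes, so reads may have been lost or shared between copies and these levels are uncertain to that extent.

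**Figure D3:**
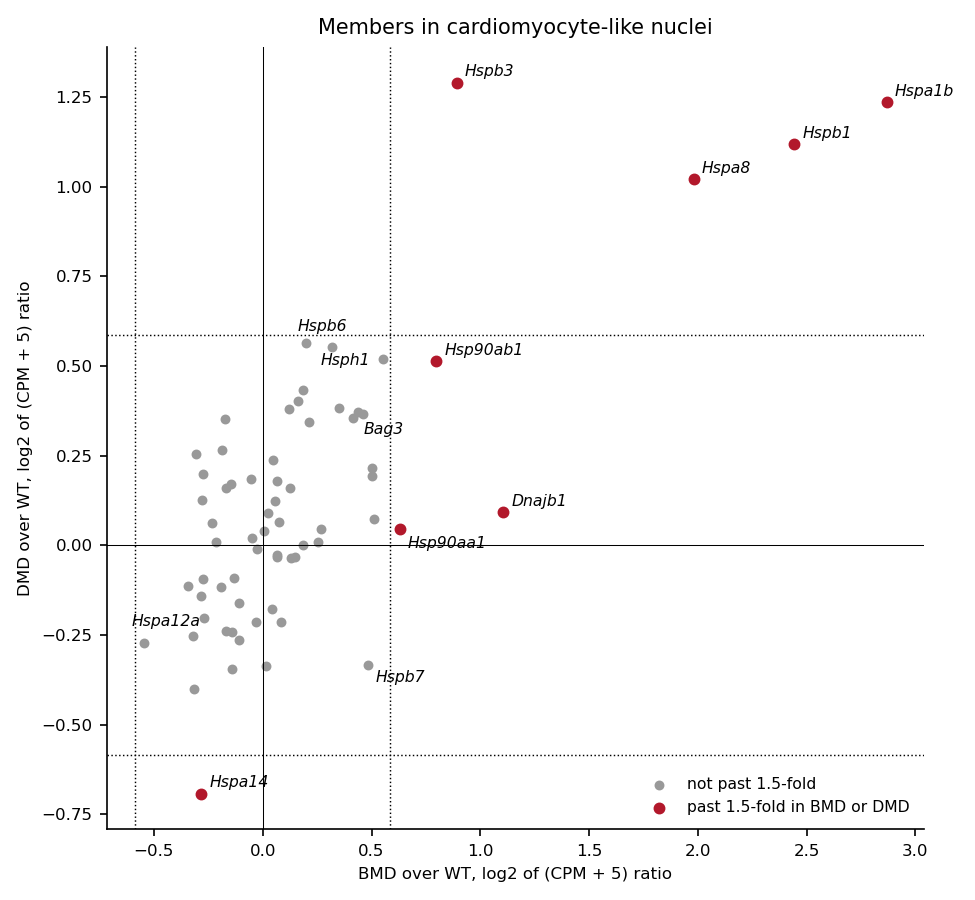
Ratio of BMD over WT (horizontal) against DMD over WT (vertical) in cardiomyocyte-like nuclei, both as log2 of the (CPM + 5) ratio, for the 67 members that passed the filter, with dotted lines at 1.5-fold. Red points are the 8 members past 1.5-fold in either comparison, both axes share the WT library, and Hspb7 lies above 0 in BMD and below 0 in DMD.

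Of the 7 members grouped by symbol as small heat shock proteins that passed the filter, 2 were past 1.5-fold higher in each mutant. Of all genes, 4.64% were in BMD and 6.15% in DMD. The summed level of the small heat shock proteins was 517, 1009.6 and 698 CPM. Hspb1 (ENSRNOG00000023546), the actin-binding protein known as Hsp27 or Hsp25, carried most of that difference. With 476, 2864 and 653 UMIs, its level was 75.0, 430.2 and 169 CPM, lowest in WT and highest in BMD. The BMD ratio was 2.52 (2.38 to 2.66) and the DMD ratio 1.17 (0.997 to 1.34), and DMD lay below BMD by a ratio of −1.35 (−1.47 to −1.23). Hspb3 (ENSRNOG00000010992), which pairs with Hspb2 in muscle, had the opposite order of the mutants. Its 36.9, 72.7 and 97.4 CPM gave ratios of 0.98 (0.75 to 1.21) and 1.40 (1.16 to 1.64).

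Hspb7 (ENSRNOG00000029079), which protects filamin C from aggregation, went in different directions in the mutants, and neither difference was past 1.5-fold. From 877, 1299 and 420 UMIs, the BMD ratio was 0.50 (0.37 to 0.62) and the DMD ratio −0.35 (−0.52 to −0.18), and the 2 mutants differed by −0.85 (−1.01 to −0.69). The BMD difference rests on which nuclei are included, since without 11 nuclei rich in Hspb1 it was 0.21 and outside a cluster led by Nppa it was −0.05, both described below. Hspb6, also called Hsp20, stood at 101, 117 and 152 CPM with ratios of 0.21 in BMD and 0.59 in DMD, and Hspb8, the partner of Bag3, at 139, 167 and 140.1 CPM with 0.26 and 0.01. Hspb2 (8.20, 13.7 and 10.1 CPM) and Hspb11 (18.3, 14.3 and 21.7 CPM) were low and not past 1.5-fold on CPM + 5. Cryab, the small heat shock protein alpha B-crystallin that the symbols leave out, stood at 459.6, 1057 and 689.7 CPM. On CPM + 5 it was past 1.5-fold higher in BMD but not in DMD, where that log2 ratio was 0.580. Its ratios of CPM were 1.201 in BMD and 0.59 in DMD.

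**Figure D4:**
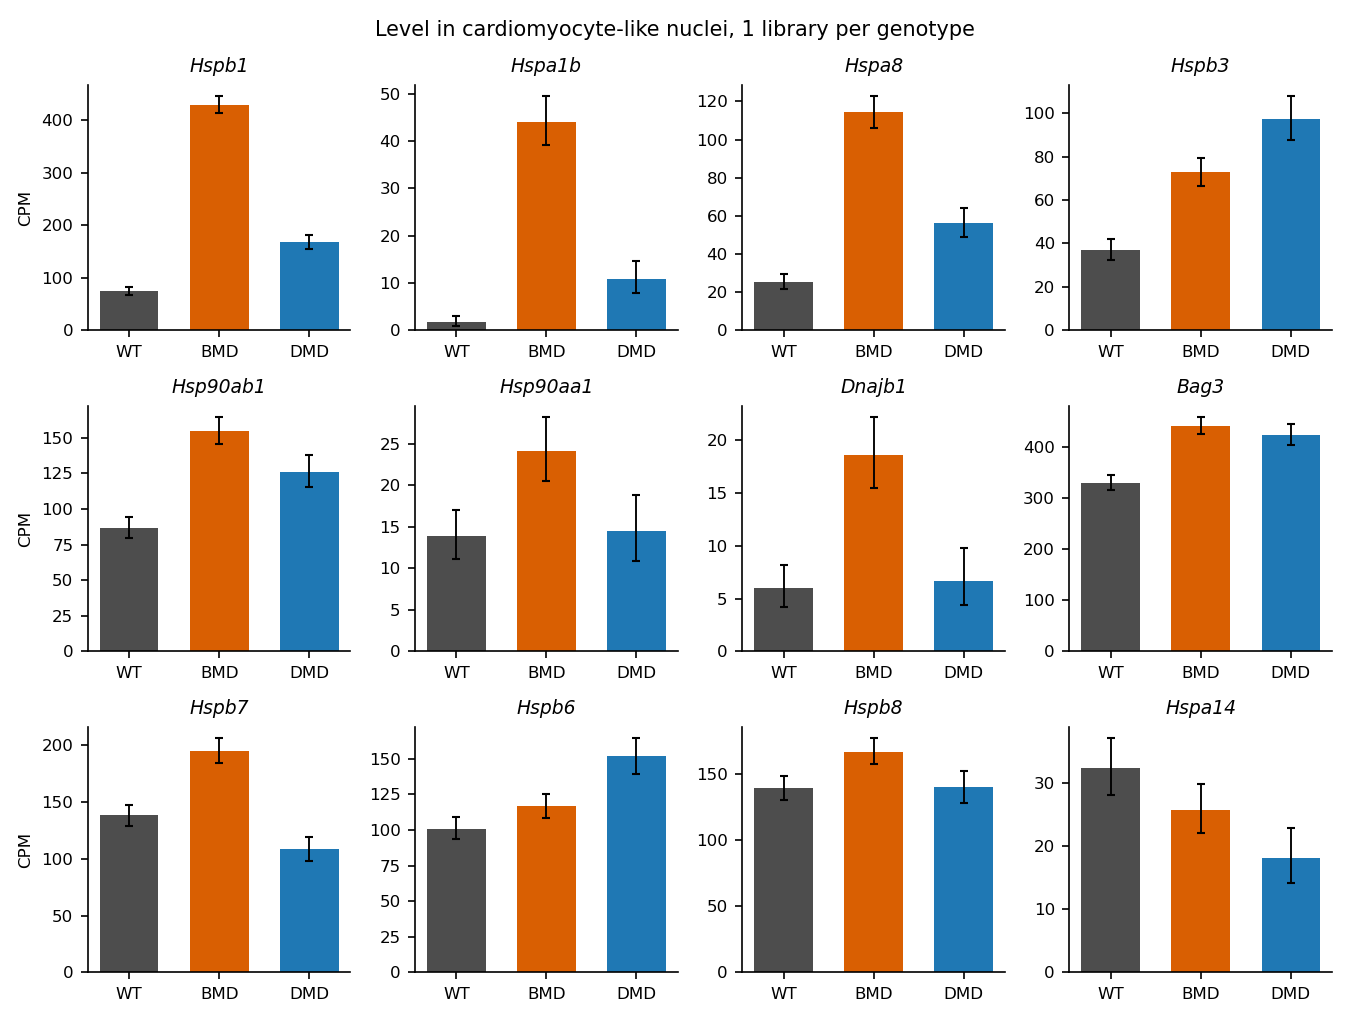
Level in CPM (vertical axis, from 0, scaled per gene) of 12 members in cardiomyocyte-like nuclei of the WT, BMD and DMD libraries, with error bars for exact Poisson 95% intervals, which cover counting error only. Hspb1, Hspa1b, Hspa8 and Dnajb1 are highest in BMD, Hspb3 and Hspb6 in DMD, and Hspa14 falls from 32.3 CPM in WT to 18.1 in DMD.

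In the HSP70 family 2 of 11 members that passed the filter were higher in each mutant and 1 was lower in DMD. Of all genes, 4.64% were past 1.5-fold higher in BMD, and 6.15% were higher and 6.11% lower in DMD. Hspa1b, the stress-inducible Hsp70, had 11, 294 and 42 UMIs, or 1.73, 44.2 and 10.9 CPM. That gave a BMD ratio of 4.67 (3.81 to 5.69) and a DMD ratio of 2.65 (1.66 to 3.75). WT cardiomyocyte-like nuclei thus held almost none, and the size of the ratios rests on those 11 UMIs. Hspa8 (ENSRNOG00000034066), the constitutive Hsp70 that works with Bag3, stood at 25.2, 114 and 56.3 CPM, with ratios of 2.18 (1.93 to 2.44) and 1.16 (0.86 to 1.46). Hspa14, a ribosome-associated relative, was at 32.3, 25.7 and 18.1 CPM and past 1.5-fold lower in DMD, with a ratio of −0.84 (−1.25 to −0.44), while in BMD it was −0.33 (−0.63 to −0.03).

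The other HSP70 proteins differed less. Hsph1, an HSP70-like exchange factor of 20.6, 32.6 and 31.8 CPM, had ratios of 0.66 and 0.62 that were not past 1.5-fold on CPM + 5, and Hspa12a, at 10.4, 5.56 and 7.75 CPM, had −0.90 (−1.53 to −0.30) and −0.42 (−1.10 to 0.22). The exchange factor Hspa4 stood at 181, 198 and 203 CPM and the mitochondrial Hspa9 at 101, 104 and 119.6 CPM, with no ratio above 0.25 in either mutant.

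Both cytosolic HSP90 genes were past 1.5-fold higher in BMD (4.64% of all genes) and not in DMD (6.15%). On CPM + 5, however, neither was past it in BMD outside the cluster led by Nppa (CPM ratios 0.61 for Hsp90ab1 and 0.42 for Hsp90aa1). Neither was past it in nuclei without immediate early UMIs (0.57 and 0.48). Hsp90aa1 was also not past it without the 11 nuclei rich in Hspb1 (0.55). Hsp90ab1 (ENSRNOG00000019834), the constitutive form, stood at 86.8, 155 and 126 CPM, with ratios of 0.83 (0.68 to 0.99) and 0.54 (0.36 to 0.72). The inducible Hsp90aa1 had 13.9, 24.2 and 14.5 CPM and ratios of 0.80 (0.42 to 1.19) and 0.06 (−0.45 to 0.56). Their relative in the endoplasmic reticulum, Hsp90b1, stood at 44.1, 38.2 and 54.0 CPM.

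Of the J-domain proteins 1 of 37 that passed the filter differed past 1.5-fold. Of all genes, 4.64% were higher and 4.99% lower in BMD, and 6.15% and 6.11% in DMD. Dnajb1 (ENSRNOG00000021824), the Hsp40 that starts the Hsp70 cycle after heat shock, had 38, 124 and 26 UMIs, or 5.99, 18.6 and 6.72 CPM, with a BMD ratio of 1.64 (1.10 to 2.20) and a DMD ratio of 0.17 (−0.61 to 0.92). Class A members were all within 1.5-fold, among them Dnaja1 at 34.5, 45.4 and 46.5 CPM. Dnajb6, which keeps aggregation-prone proteins soluble and is mutated in a limb-girdle muscular dystrophy, stood at 227, 185 and 205 CPM, and the sum of the 13 class B members was 650.8, 602 and 599 CPM. The 28 class C members summed to 1329, 1280.1 and 1332 CPM. The members of this class furthest below WT in both mutants were Dnajc9, a histone chaperone, at 11.5, 8.26 and 7.49 CPM, Dnajc21 (46.8, 36.5 and 38.5 CPM) and Dnajc3 (34.7, 27.9 and 29.5 CPM). None of them was past 1.5-fold on CPM + 5.

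No BAG protein was past 1.5-fold. Bag3 (ENSRNOG00000020298) was higher than WT in both mutants by less than that, with 2091, 2939 and 1637 UMIs and ratios of 0.42 (0.34 to 0.50) and 0.36 (0.27 to 0.45), and the mutants differed by −0.06 (−0.15 to 0.03). Bag2, an inhibitor of the ubiquitin ligase Stub1, stood at 31.2, 34.4 and 42.1 CPM. Of the 12 listed members and partners of the Bag3 autophagy route, 2 were past 1.5-fold higher in both mutants. They were Hspa8 and Flnc, the filamin that is the route's best known client. Of all genes, 4.64% were past it in BMD and 6.15% in DMD. Flnc stood at 101, 219 and 180.1 CPM, with ratios of 1.11 and 0.83, whereas the autophagy receptor Sqstm1 (131, 126 and 126 CPM) and Stub1 (12.6, 17.6 and 15.8 CPM) were within 1.5-fold.

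By function, the members past 1.5-fold fell partly on the list of textbook Hsf1 targets. That list was chosen with earlier results of these data known, so the overlap is a description and the part of Hsf1 was not tested. Of the 11 Hsf1 targets in the files, 6 were past 1.5-fold higher in BMD (Hspa1b, Hspb1, Hspa8, Dnajb1, Hsp90ab1 and Hsp90aa1), beside 4.64% of all genes tested. In DMD 3 were (Hspb1, Hspa1b and Hspa8), beside 6.15% of all genes. The 11 targets had median ratios of 0.63 and 0.38 on CPM + 5, and their sum was 678, 1394 and 972 CPM. The remaining 5 targets, in neither count, were Bag3, Hsph1, Dnaja1, and the mitochondrial Hspd1 (64.6, 67.3 and 70.8 CPM) and Hspe1 (19.7, 21.2 and 16.3 CPM). The promoters of Hspd1 and Hspe1 each held 3 overlapping pairs. Of the 9 members of the endoplasmic reticulum none was past 1.5-fold. Hspa5 stood at 52.5, 76.3 and 61.8 CPM and the membrane J-domain protein Dnajc1 at 130.3, 164 and 194 CPM, while Dnajb9, Dnajb11, Dnajc10, Dnajc25 and Hspa13 lay between 6.76 and 54.5 CPM in every library. Of the reticulum members, Hspa5, Hsp90b1 and Hspa13 led in fibroblast-like nuclei, whereas Dnajc1 was among the leading members of T, B or NK cell-like nuclei. Fibroblast markers summed to 198, 151 and 371 CPM in the cardiomyocyte-like nuclei. The part of fibroblast RNA in the DMD levels of Hspa5, Hsp90b1 and Hspa13 was not tested. None of the 8 mitochondrial members that passed the filter was past 1.5-fold.

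Genes around the members, from lists chosen for their function, differed in few cases. Of all genes, 4.64% were past 1.5-fold higher and 4.99% lower in BMD, and 6.15% and 6.11% in DMD. None of the 5 genes listed as heat shock factors, among them Hsbp1 of a factor-binding protein, was past 1.5-fold, with Hsf1 at 55.2, 60.4 and 63.8 CPM. Of 18 further co-chaperones of HSP90 and HSP70, only Fkbp4, a steroid receptor co-chaperone, was past it, lower in DMD (16.9, 12.8 and 9.30 CPM). The 14 subunits of the cytosolic chaperonin and of prefoldin were all within 1.5-fold, with 10 above 0 in BMD and 12 in DMD. In the unfolded protein response of the reticulum, 16 of 19 genes passed the filter, and the stress factor Ddit3 was higher in BMD (84.3, 171 and 102 CPM) while its upstream kinase Eif2ak3 was lower in both (70.9, 40.3 and 43.2 CPM).

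Immediate early genes, which respond to dissociation of tissue as well as to stress in the animal, were also higher in cardiomyocyte-like nuclei of the mutant libraries. Of 13 such genes that passed the filter, 12 were past 1.5-fold higher in BMD and 8 in DMD. Of all genes, 4.64% were in BMD and 6.15% in DMD. The summed level of the immediate early genes in cardiomyocyte-like nuclei was 248, 760 and 495 CPM. Fibroblast-like nuclei held 589, 576 and 638 CPM of them and endothelial-like nuclei 600, 481 and 647 CPM. In macrophage-like nuclei the sum was 808, 466 and 559 CPM, and in pericyte-like or smooth muscle-like nuclei 343, 379 and 335 CPM. Restricting the comparison to nuclei without a UMI of these genes, a choice made after seeing the data, left 1150, 338 and 331 nuclei, whose median depth was 2395.5, 2975 and 2528 UMIs. In those nuclei 3 of 58 members, Hspa8, Hspb1 and Hspb3, were past 1.5-fold higher in BMD, against 4.9% of all genes there, and 4, with Dnajc27 besides, in DMD, against 7.35%. None was lower in BMD (8.17% of all genes) and Hspa14 was in DMD (9.8%). Hspb1 kept ratios of 2.25 and 1.13 and Hspb3 of 1.08 and 1.36, whereas Hspa8 had 1.24 and 0.83, Dnajb1 0.55 and 0.29, and Hsp90ab1 0.57 and 0.06. Handling and genotype cannot be told apart with 1 library each.

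RNA outside nuclei also differed between the libraries. In barcodes with at most 50 UMIs, Hspb1 stood at 131, 713 and 375 CPM, Hspa1b at 11.4, 110.4 and 28.2 CPM and Hspb7 at 81.9, 267 and 141 CPM, each highest in BMD. Hsp90ab1 had the reverse order there, with 644, 248 and 454 CPM. Such RNA was estimated at 3.46%, 6.07% and 4.68% of the UMIs of cardiomyocyte-like nuclei. After its subtraction the ratios were 2.49 and 1.12 for Hspb1, 4.84 and 2.85 for Hspa1b, and 2.18 and 1.18 for Hspa8.

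The members were also spread unevenly over nuclei. Hspb1 had a UMI in 14.1%, 59.1% and 32.7% of cardiomyocyte-like nuclei, Hspa8 in 7.39%, 33.5% and 16.7%, and Hspa1b in 0.542%, 13.9% and 3.29%, at the unequal depths given above. Of the BMD nuclei 11 held 20 or more UMIs of Hspb1, a threshold set after the values were seen, while no WT or DMD nucleus did. These 11 nuclei, with a median of 16861 UMIs and none called a doublet, held 19.1% of the Hspb1, 20.4% of the Hspb7 and 20.1% of the Cryab UMIs of the BMD cardiomyocyte-like nuclei. Without them the BMD ratio was 2.26 for Hspb1, 0.65 for Hsp90ab1 and 0.36 for Bag3, but 0.21 (0.08 to 0.34) for Hspb7. The BMD count of members past 1.5-fold higher was then 6 (4.16% of all genes), Hsp90aa1 no longer being among them.

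To compare shares of nuclei at 1 depth, each nucleus was thinned to 500 UMIs, which left no nucleus out. A UMI of Hspb7 was then found in 5.57% (4.61 to 6.66), 7.51% (6.24 to 8.95) and 5.08% (3.84 to 6.58) of cardiomyocyte-like nuclei, with exact binomial intervals. At 1000 UMIs, which left out 124, 42 and 69 nuclei, the shares were 12.6% (11.1 to 14.2), 14.8% (13.1 to 16.8) and 9.76% (7.98 to 11.8). In fibroblast-like nuclei, whose Hspb7 level was the lowest of the 5 larger classes in WT, the thinned shares were 0.313%, 0.915% and 0.659%. Bag3 had a UMI in 14.5%, 18.3% and 19.4% of the thinned cardiomyocyte-like nuclei, against 1.57%, 1.57% and 3.13% of pericyte-like or smooth muscle-like nuclei. Median depths before thinning were 1217, 1588 and 1356 UMIs in fibroblast-like and 802, 990 and 920.5 UMIs in pericyte-like or smooth muscle-like nuclei. Without thinning, cardiomyocyte-like nuclei had a UMI of Hspb7 in 29.6%, 39.4% and 27.9% and of Bag3 in 53.5%, 70.4% and 66.2% of cases.

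At a finer clustering (Leiden resolution 1.0) the cardiomyocyte-like nuclei split, and a cluster led by Hs3st2, Xirp2, Gadd45g and the natriuretic peptide genes Nppa and Nppb, which the clustering did not use, took in 69 of 2024, 564 of 1526 and 244 of 1057 nuclei. The skeletal actin gene Acta1 was also among its 10 leading genes. Inside this cluster Hspb7 stood at 487, 299 and 161 CPM, and in the other cardiomyocyte-like nuclei at 122, 118 and 89.4 CPM. In BMD Hspb7 was thus not above WT in either subset, with a ratio of −0.70 (−0.96 to −0.43) inside the cluster and −0.05 (−0.22 to 0.12) outside it, beside 0.50 over both together. In DMD it lay below WT in both, at −1.60 and −0.44. Hspb6 showed 269, 139 and 164 CPM inside and 93.1, 101 and 148 CPM outside the cluster.

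Hspb1 was also higher inside the cluster, by ratios of 2.64 (2.32 to 2.95), 1.19 (1.08 to 1.30) and 0.94 (0.71 to 1.17). Outside it, Hspb1 stood at 60.5, 277 and 136 CPM, and BMD and DMD were above WT by 2.20 and 1.17. Inside it, at 376, 634 and 261 CPM, BMD was above WT by 0.75 (0.47 to 1.05) and DMD lay below WT at −0.53 (−0.85 to −0.19). Hsp90ab1 differed inside by 0.10 (−0.31 to 0.54) in BMD and −0.05 (−0.50 to 0.42) in DMD. Hspa8 lay above WT by 2.12 inside and 1.98 outside in BMD, and by 1.22 and 1.002 in DMD. The inside values rest on 69 WT nuclei, and all WT cardiomyocyte-like nuclei together held 160 UMIs of Hspa8. For Hspb3 the values were 0.73 inside and 0.60 outside in BMD, and 1.32 and 1.14 in DMD. Hspa1b outside the cluster had 7, 158 and 23 UMIs. Outside the cluster 66 members passed the filter. In BMD 4 were past 1.5-fold higher (Dnajb1, Hspa1b, Hspa8 and Hspb1, against 2.99% of all genes) and 2 lower (Hspa12a and Hspa13, against 4.64%). In DMD 5 were higher (Hspa1b, Hspa8, Hspb1, Hspb3 and Hspb6, against 5.46%) and Dnajc9 was lower (against 6.46%).

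**Figure D5:**
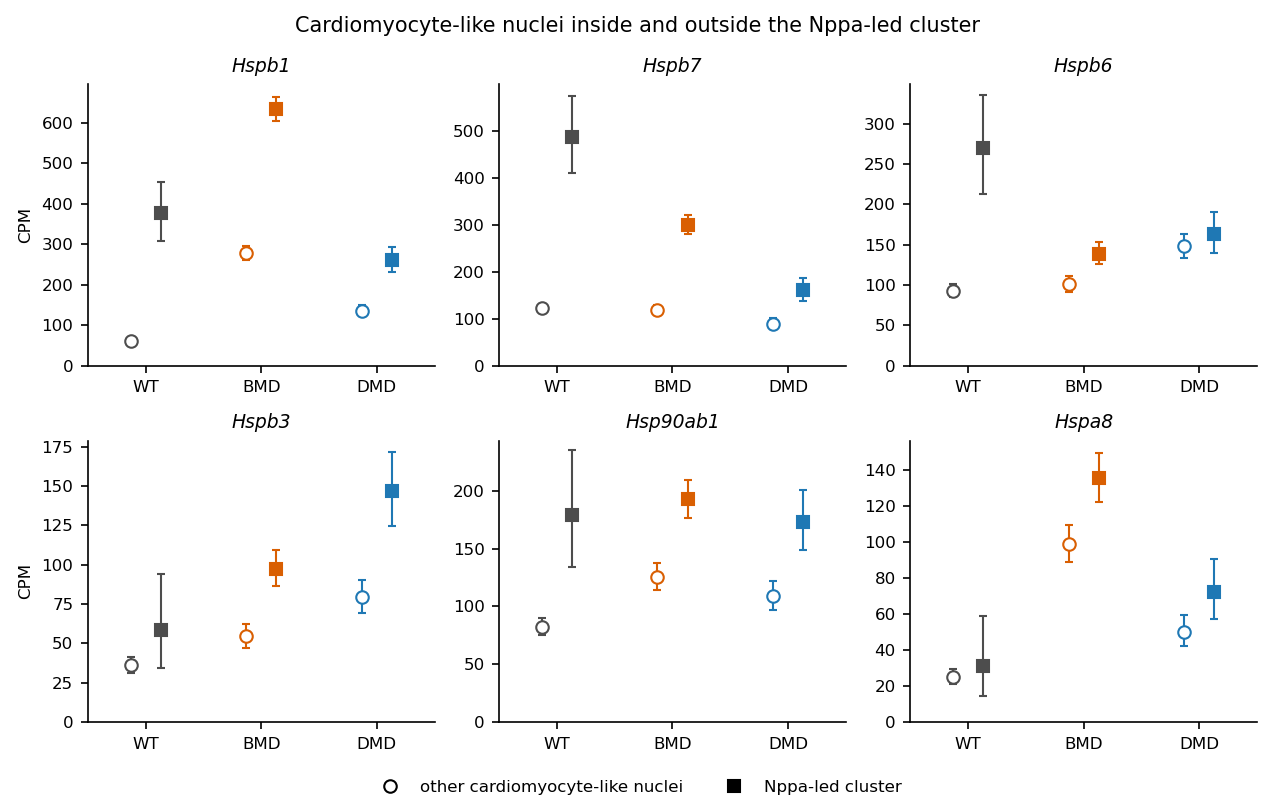
Level in CPM (vertical axis, from 0) of 6 members in WT, BMD and DMD cardiomyocyte-like nuclei inside (filled squares) and outside (open circles) the cluster led by Nppa, with exact Poisson 95% intervals. Hspb7 is highest in the 69 WT nuclei of the cluster at 487 CPM and at 122 CPM or below outside it, whereas Hspa8 in BMD is above WT both inside and outside.

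In each of the other 4 larger classes at most 2 Hsf1 targets were past 1.5-fold higher in either mutant. In cardiomyocyte-like nuclei 6 were in BMD and 3 in DMD. The 4 classes held fewer UMIs, and fewer members passed the filter, from 63 in fibroblast-like to 37 in pericyte-like or smooth muscle-like nuclei, against 67. The counts are therefore not on 1 footing, and the shares of all genes follow by class. Cardiomyocyte markers in these 4 classes were higher in BMD than in WT, with sums of 766, 1249 and 1066 CPM in fibroblast-like, 1326, 2061 and 1796 in endothelial-like, 1422, 2313 and 1530.1 in macrophage-like and 1203, 2349 and 1687 in pericyte-like or smooth muscle-like nuclei. Their part in the values of Hspb1, Hspb6, Hspb7, Hspa1b and Hspa8 in these classes was not tested.

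Fibroblast-like nuclei had 63 members past the filter. In BMD 3 were past 1.5-fold higher, Hspa1b, Hspa8 and Hspb7, where 4.29% of all genes were, and 3 were lower, Dnajb12, Hspa12a and Hspa13, where 6.4% were. In DMD 4 were higher, Dnaja4, Hspa1b, Hspa8 and Hspb6, against 3.86% of all genes, and 2 lower, Hspa12a and Hspa13, against 2.88%. Hspa13, a reticulum HSP70 also known as Stch, stood at 56.4, 34.4 and 33.4 CPM, with ratios of −0.71 (−1.06 to −0.38) and −0.75 (−1.08 to −0.44). Hspa12a was at 43.4, 25.5 and 24.8 CPM and Hspa8 at 7.03, 13.1 and 18.7 CPM. Hspb1, at 50.03, 55.8 and 67.2 CPM, was within 1.5-fold, and so was Hsp90ab1 at 333, 228 and 300.5 CPM.

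In endothelial-like nuclei 57 members passed the filter. Hspa8, Hspb1, Hspb6 and Hspbap1 were past 1.5-fold higher in BMD (3.95% of all genes) and Hspa12a, Hspa13 and Hspe1 lower (6.29% of all genes). Hspa8, Hspb1 and Hspb6 were higher in DMD (4.24%) and Dnajc24 and Hspa12a lower (3.07%). Hspb1 stood at 93.5, 147 and 144 CPM with ratios of 0.65 (0.34 to 0.97) and 0.62 (0.32 to 0.94). Hspa12a had 33, 13 and 22 UMIs, or 24.5, 7.13 and 10.9 CPM, with ratios of −1.78 (−2.83 to −0.82) and −1.16 (−2.01 to −0.34). Hspa1b, with 19, 8 and 4 UMIs or 14.1, 4.39 and 1.99 CPM, was highest in WT in this class and did not pass the filter.

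Pericyte-like or smooth muscle-like nuclei had 37 members past the filter on the fewest UMIs of the 5 larger classes. Dnajc18, Dnajc21, Dnajc3 and Hspb1 were past 1.5-fold higher in BMD (6.58% of all genes) and Dnaja3, Dnajb14, Dnajc8, Hsp90b1 and Hspa12a lower (9.12%), while Hspb1 and Hsph1 were higher in DMD (6.57%) and Dnajb2 and Hspbap1 lower (6.14%). Hspb1 rested there on 15, 30 and 28 UMIs, or 21.98, 57.4 and 47.1 CPM. Hspa12a, the member that marked the class, had ratios of −0.62 (−1.10 to −0.14) and −0.50 (−0.96 to −0.06). Its ratio was below 0 in both mutants in each of the cardiomyocyte-like, fibroblast-like, endothelial-like and pericyte-like or smooth muscle-like nuclei.

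Macrophage-like nuclei had 45 members past the filter. Only Hspb1 was past 1.5-fold higher in BMD (5.81% of all genes), at 20.3, 57.5 and 29.0 CPM, and Hsp90ab1 and Hspa13 were lower (10.2%). In DMD Bag1, Dnajb12 and Hspa12b were higher (8.6%) and Bag6, Dnajb4, Dnajc16, Dnajc24 and Hspa8 lower (7.57%). Hsp90ab1 stood at 360.2, 221 and 253 CPM, with ratios of −0.70 (−0.96 to −0.45) and −0.51 (−0.76 to −0.27), opposite in sign to those in cardiomyocyte-like nuclei. Hspa8, at 26.8, 18.1 and 13.9 CPM from 29, 16 and 12 UMIs, had ratios of −0.57 (−1.55 to 0.36) and −0.95 (−2.05 to 0.07).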

How the data were processed

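The authors sequenced sorted nuclei with the 10x Genomics 3′ v3.1 kit, as the methods and labels state (the study's results text names the 5′ kit instead), and deposited raw UMI counts per gene and barcode for all barcodes, made with Cell Ranger on the build rn6 per the submitters' processing notes. Whether intronic reads were counted is not given in the sources used here. The table given for the WT sample aggregates all 3 libraries, and only its WT barcodes were used, while the deposited counts of BMD and DMD came from their own files. In the aggregate the same BMD and DMD barcodes held 76.1% and 92.9% of the UMIs of their own files. Whether WT counts were reduced likewise is not shown, which limits comparisons of depth with WT. The file headers name Cell Ranger 6.0.1 for the aggregate and Cell Ranger 4 for the other files. No BMD or DMD entry in the aggregate was above that of its own file. The version that counted the WT reads themselves is not shown, so counting version and genotype cannot be told apart.

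As many of the deepest barcodes per library as the methods count nuclei were kept, with no doublet or mitochondrial filter. The shallowest nucleus had 513, 525 and 546 UMIs, and Scrublet called 8.01%, 5.10% and 10.4% of nuclei doublets. Counts were scaled to 10000 per nucleus and logged, and clustered with the Leiden method at resolution 0.5 from 15 neighbours in 30 principal components of the 2000 most variable genes (scanpy 1.11.5, igraph 0.11.9). Clustering did not use the members, mitochondrial genes, sex genes or 8 genes that the study names. A cluster was named when at least 3 markers, each with at least 10 UMIs, stood 2-fold above all other nuclei. A cluster stayed unnamed where another class tied, had over 0.5 times as many raised markers or led its 10 top genes, where over 5 of these were mitochondrial, or where it was shallow with no marker among them, and parts of this rule were set after the data were seen.

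UMIs were summed per class and library and scaled to CPM. A gene was called past 1.5-fold from CPM + 5 where it had at least 50 UMIs over the 3 libraries. Exact Poisson and Clopper-Pearson intervals came from scipy 1.17.1, and TMM factors from edgeR 4.0.16 in R 4.3.3. The ratios and intervals were also run on simulated Poisson counts. That simulation held no uneven spread over nuclei, no RNA from outside nuclei and no variation between animals, so it checked the calculation only. The text names Hspb7, Bag3, the Hsf1 targets, the small heat shock proteins and the reticulum members with at least 50 UMIs, the 5 highest and 5 lowest of the 65 members with at least 100 UMIs by the ratio nearer to 0, members past 1.5-fold, the 3 leading members of each class and members at 0. Other members named were chosen after their values were seen. The members and lists were chosen with earlier results of these data known. Protein sequences and the promoters of 16 members were not analysed here.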

Additional observations from a re-analysis of the deposited data

Results flagged for a closer look

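For 2 members the mutant and WT libraries differed in opposite directions, each past 1.5-fold, in cardiomyocyte-like and macrophage-like nuclei. Hsp90ab1 in BMD had a log2 ratio over WT of 0.83 in cardiomyocyte-like and −0.70 in macrophage-like nuclei. In barcodes with at most 50 UMIs Hsp90ab1 stood at 644, 248 and 454 CPM in WT, BMD and DMD, beside 360.2, 221 and 253 CPM in macrophage-like nuclei, and the part of such RNA in the difference was not tested. Hspa8 in DMD had a ratio of 1.16 in cardiomyocyte-like and −0.95 in macrophage-like nuclei, the latter from 29 UMIs in WT and 12 in DMD. With 1 library per genotype, the difference between the classes was not tested.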

How the results depend on the processing

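Of 840 ratios of named members under the alternatives, 771 stayed within the counting interval of the value given above and 64 left it. A further 5, whose interval excluded 0, changed sign. Sign changes of ratios whose interval held 0 were not counted apart. With all nuclei summed, the BMD ratio was −0.17 for Hsp90ab1 and −0.49 for Hspa5, 2 members were past 1.5-fold lower in BMD and 0 in DMD. In nuclei without immediate early UMIs (chosen after seeing the data) the BMD ratio was 0.056 for Hspa14 and −0.094 for Hspb6, and 3 members were higher in BMD. Outside the cluster led by Nppa (also chosen after seeing the data) it was −0.049 for Hspb7, with 4 members higher and 2 lower in BMD. Past 2-fold, 4 members were higher in BMD and 0 lower in DMD. With free RNA subtracted, the aggregate's counts, the mean over nuclei or a pseudocount of 1 CPM, 1 member, Hspa12a, was lower in BMD. The share of all genes was not taken under these settings, past 2-fold or with all nuclei summed, so those counts of members have no background beside them. Hspb7 had a UMI in 29.6%, 39.4% and 27.9% of WT, BMD and DMD nuclei without thinning and 12.6%, 14.8% and 9.76% at 1000 UMIs, and Bag3 in 53.5%, 70.4% and 66.2%, and 25.7%, 32.4% and 34.9%. The cause was not tested. Removing doublets or nuclei over 5% mitochondrial UMIs, other depth minimums, TMM scaling, Leiden resolution 1.0 and clustering with the members left each count of members within a factor of 1.5 of that given above. No paired analysis was possible because each genotype had 1 library. Depth limits the smaller classes, where Hspa8 in macrophage-like nuclei rested on 29, 16 and 12 UMIs.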
